A study of Mus musculus with 4 samples.

Results

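The cytosolic ribosomal protein genes were examined in liver of PPARα-null and wild-type mice, either fasted or fed. They were chosen by symbol, as probe sets annotated to a single gene whose symbol has the form of a large subunit protein (Rpl), a small subunit protein (Rps), an acidic stalk protein (Rplp) or Rpsa. This gave 96 of the 22626 probe sets that are not array controls, for 45 of the 12393 genes with a probe set of their own. The large subunit had 43 probe sets for 24 genes and the small subunit 53 probe sets for 21 genes. A further 102 probe sets list a ribosomal protein symbol together with other genes and are not members, and 27 ribosomal protein genes were represented only there.

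The arrays, 1 per group, held pooled liver RNA of 5 male mice. The groups were PPARα-null mice of the 129S4/SvJae substrain fasted for 24 hours, wild-type 129S1/SvImJ mice fasted for 24 hours, fed PPARα-null mice and fed wild-type mice, all aged 12 to 20 weeks. Food was withdrawn at lights on for the fasted groups, and the fed livers were taken at the close of the night. PPARα is the nuclear receptor that switches on fatty acid oxidation in fasted liver, and the null mice lack it in every cell. The 2 genotypes are of different substrains, so genotype and substrain cannot be told apart. With 1 array per group there is no replicate and no test, and a difference of 1.5-fold or more, the study's limit for its pooled arrays, was used as a description. In whole liver, fewer cells of a type and less RNA per cell cannot be told apart.

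The mammalian ribosome joins a large subunit, which forms the peptide bonds, with a small subunit, which reads the messenger RNA. The proteins of both subunits are for the most part needed in equal numbers, and their messages are among the most abundant in the liver cell. Most of these messages begin with a C followed by an unbroken run of pyrimidines, the terminal oligopyrimidine (TOP) tract. The RNA-binding protein Larp1 binds this tract and holds such messages out of translation when nutrients are scarce and the kinase mTOR is inactive. Arrays measure the amount of message and not its translation.

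The starts of 10 member genes are shown so that the TOP tract, by which ribosomal protein messages are known, can be seen with and without a match in RefSeq. They were picked by hand and lean toward long runs, with 6 of the 10 having a C and at least 4 pyrimidines at the start and 8 of the 10 a run of 8 or more bases. Each window runs from 10 bases before to 20 bases from the RefSeq start of transcription (build GRCm38.p6), 5′ to 3′ on the coding strand, and the capitals mark the longest run of C and T that comes within 5 bases of the start. For a gene with several RefSeq starts, the start with the longest run is shown.
Rps18: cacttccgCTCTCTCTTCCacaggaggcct
Rps10: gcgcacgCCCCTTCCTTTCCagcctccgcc
Rps6: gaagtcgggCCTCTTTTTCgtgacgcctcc
Rps24: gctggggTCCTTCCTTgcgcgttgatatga
Rps19: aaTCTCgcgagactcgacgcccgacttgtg
Rpl35: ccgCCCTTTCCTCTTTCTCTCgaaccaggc
Rpl38: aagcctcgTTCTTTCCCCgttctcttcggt
Rpl7a: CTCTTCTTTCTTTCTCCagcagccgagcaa
Rplp2: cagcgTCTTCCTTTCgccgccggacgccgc
Rplp0: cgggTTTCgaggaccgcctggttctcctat

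The window of Rps18 lies at chr17:33955646-33955675 on the minus strand, that of Rpl35 at chr2:39005112-39005141 on the minus strand, that of Rpl7a at chr2:26910797-26910826 on the plus strand and that of Rplp0 at chr5:115559457-115559486 on the plus strand. The run at Rpl7a begins before the window and spans 21 bases, the longest of the family. Rps19 and Rplp0 have runs of only 4 bases, which end upstream of the RefSeq start, and the letters depend on where RefSeq places that start.

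Of the 45 member genes, 39 matched the RefSeq promoter table, with 47 starts, as did 9887 of all genes with a probe set of their own, from which the members were drawn. A C at the first base followed by at least 4 C or T was present at 8 of the 39 genes (20.5%), against 3.03% of the array's genes and 3.01% of the 27025 genes in the table. A run of 8 or more pyrimidines near the start was present at 17 genes (43.6%), against 12.2% of the array's genes and 11.0% of the table. The letters CCGGAAG, the core that ETS family factors such as GABP bind, were found on either strand of the window from 250 bases before to 50 bases after the start in 20 genes (51.3%), against 16.3% of the array's genes and 9.93% of the table. TATAAA, searched in the same way, was found in 5 genes (12.8%), against 11.9% of the array's genes and 15.7% of the table. The mitochondrial ribosomal proteins, whose messages are not of the TOP class, had the C and 4 pyrimidines at 0 of 65 matched genes and CCGGAAG in 36.9%. These are matches of letters and not mapped sites.

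The labels were checked first. Ppara read 16.3 units in fasted null and 755 units in fasted wild-type liver, 104 units in fed null and 583 units in fed wild-type liver, and was lower in both null pools. A probe set was called measured when its mean log2 intensity over the 4 arrays was at least 6, which is 64 units. By this rule 5306 probe sets (23.5%) were measured. The rule uses the same arrays as the differences, so a probe set can pass it through the arrays where it is high. All 12 hepatocyte markers on the array were measured and none differed by 1.5-fold. None of the 13 lymphocyte markers and none of the 7 cholangiocyte markers was measured. In fasted null, fasted wild-type, fed null and fed wild-type liver, 11 stellate cell and fibroblast markers summed to 2223, 1444, 1699 and 1413 units. In the same order, 11 endothelial markers summed to 903, 618, 649 and 672 units. Of each list 2 were measured, and the endothelial ones, Stab2 and Clec4g, differed in opposite directions in fasted null against fasted wild-type liver. The summed level of 14 Kupffer cell and macrophage markers, 5 of them measured, was 1514 units in fasted null, 732 units in fasted wild-type, 1251 units in fed null and 1182 units in fed wild-type liver. The summed level of 9 exocrine pancreas markers was 172 units in fasted null and 164 units in fasted wild-type liver, against 998 units in fed null and 692 units in fed wild-type liver, most of it from Cela1. The log2 difference between 5′ and 3′ control probes for Gapdh lay between -0.09 and 0.07, and for beta-actin between -1.29 and -1.09. The part that these cells or RNA quality have in the values below was not tested.

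Ribosomal protein messages hardly differed between the 4 pools. Of the 96 member probe sets, 70 were measured (33 of the large and 37 of the small subunit, for 36 genes), and all 70 read at least 64 units on every array. None of the 70 differed by 1.5-fold in any of the 4 comparisons. Among all measured probe sets, 27.8% differed by 1.5-fold in fasted null against fasted wild-type liver, 5.13% in fed null against fed wild-type liver, 37.8% in fasted against fed null liver and 23.3% in fasted against fed wild-type liver. The members were bright, 61 of the 70 having a mean log2 intensity of at least 10. Of all 1441 probe sets that bright, 15.5%, 2.15%, 22.6% and 17.6% differed by 1.5-fold in the same 4 comparisons.

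The highest of the 4 arrays stood 1.04-fold to 1.46-fold above the lowest for the 70 measured members, with a median of 1.18-fold. Over all 5306 measured probe sets the median was 1.56-fold, and 2875 (54.2%) reached 1.5-fold. The SD of the log2 differences across measured members was 0.17 in fasted null against fasted wild-type liver and 0.21 in fasted against fed null liver, against 0.79 and 0.98 over all measured probe sets. With a mean log2 intensity of at least 10, the SDs were 0.15 and 0.19 for members, against 0.56 and 0.64 for all such probe sets. Probe sets share the arrays, and these SDs describe spread over probe sets and not error between animals.

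**Figure D1:**
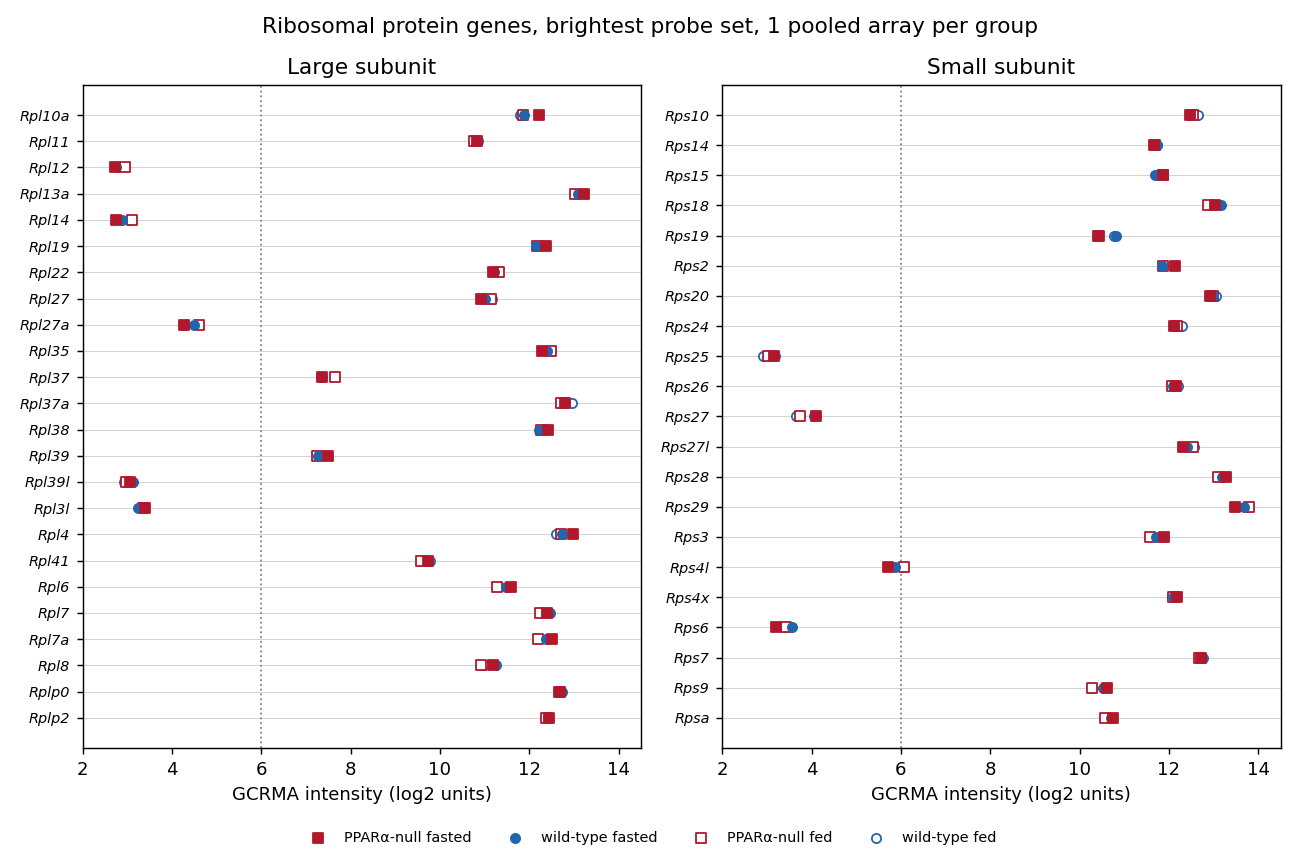
GCRMA intensity on the log2 scale (x axis) of the brightest probe set of each ribosomal protein gene (y axis), for the 4 pooled arrays. Squares are PPARα-null, circles wild-type, filled symbols fasted and open symbols fed, and the dotted line is the limit of 6 for a measured probe set. The symbols of a gene lie close together, and 9 genes stand left of the line.

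The 26 probe sets that were not measured read at most 66.8 units, and 19 of them stayed under 16 units on every array. They left 9 genes with no measured probe set: Rpl12, Rpl14, Rpl27a, Rpl39l, Rpl3l, Rps25, Rps27, Rps4l and Rps6. Rps6, the small subunit protein that S6 kinase phosphorylates, read 7.35 to 11.8 units on its pair of probe sets. These values are those of dim probe sets, and they give no level for genes such as Rps6 and Rps27 that every ribosome uses. Rpl3l, a muscle form of Rpl3, read 10.5, 9.52, 10.1 and 10.4 units in fasted null, fasted wild-type, fed null and fed wild-type liver. Rps4l, a relative of Rps4x, read 52.2, 58.6, 66.8 and 65.9 units in the same order.

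Counted over all 96 members, 1 probe set passed 1.5-fold in fasted null against fasted wild-type liver, 0 in fed null against fed wild-type, 3 in fasted against fed null and 1 in fasted against fed wild-type. The shares of all 22626 probe sets were 12.6%, 2.57%, 17.2% and 8.78%. All of these members were dim. They were Rps24 1455195_at at 10.2, 19.8, 21.0 and 18.8 units, Rps20 1450417_a_at at 14.3, 14.6, 8.98 and 9.59 units, and Rps18 1421838_at at 15.4, 11.3, 9.82 and 9.41 units, in fasted null, fasted wild-type, fed null and fed wild-type liver. The measured probe sets of the same 3 genes stayed under 1.5-fold.

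**Figure D2:**
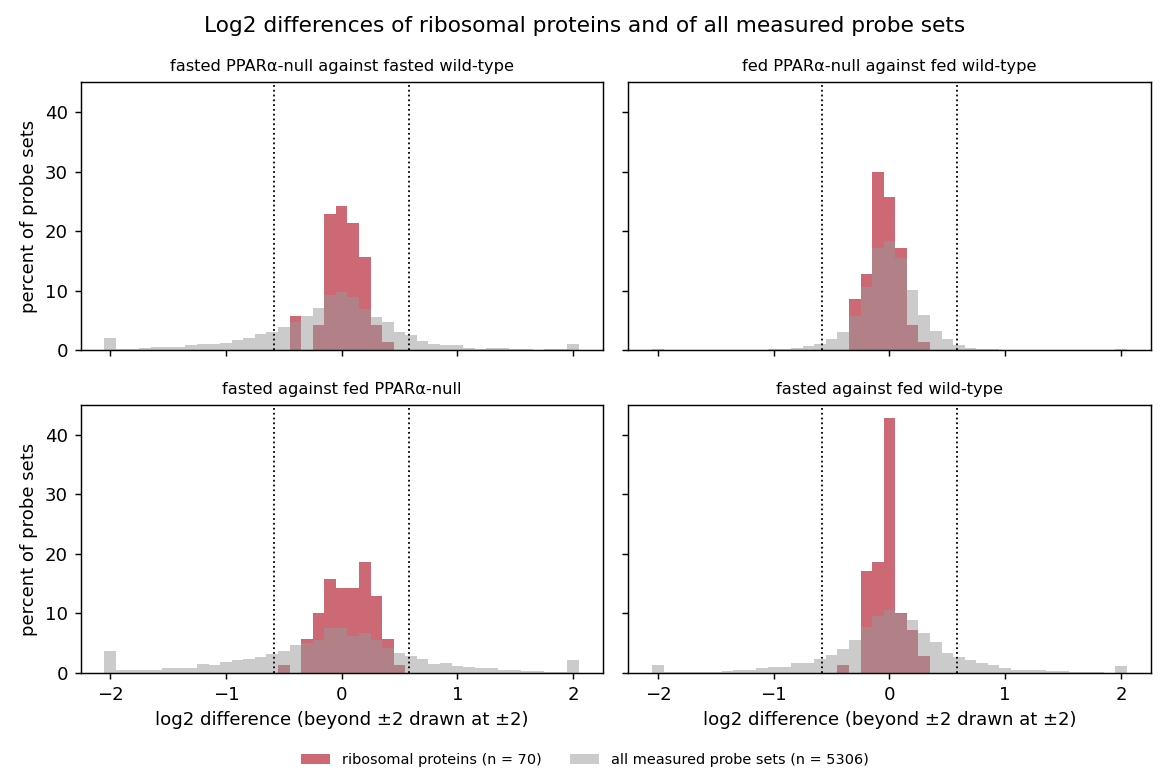
Distribution of log2 differences (x axis, 0.1 per bin) as percent of probe sets (y axis) for the 70 measured ribosomal protein probe sets (red) and all 5306 measured probe sets (grey), in 4 comparisons of 1 array with 1 array. Dotted lines mark 1.5-fold either way, and no ribosomal protein lies beyond them.

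In 24-hour fasted liver, where the study looked for PPARα dependence, the median log2 difference of PPARα-null against wild-type was 0.01 over all members, 0.00 for the large subunit and 0.03 for the small subunit. Over all 22626 probe sets it was 0.04. Rpl10a, a large subunit protein of the stalk beside the tRNA exit site, had 4774 units in fasted null and 3761 units in fasted wild-type liver, a log2 difference of 0.34. Rps2, which lines the entry channel of the messenger RNA, followed at 4488 units in fasted null and 3667 units in fasted wild-type liver (0.29 log2). Rpl4 (0.24), Rpl19 (0.24) and Rpl39 (0.22), all of the large subunit, completed the upper end of this ranking by brightest probe set. A dimmer measured probe set of the small subunit gene Rps9, 1434624_x_at, stood above them all at 0.38 log2.

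At the lower end by brightest probe set stood Rps19, the small subunit protein most often mutated in Diamond-Blackfan anaemia. It had 1372 units in fasted null and 1809 units in fasted wild-type liver (-0.40 log2). In fed liver it had 1393 units in null and 1756 units in wild-type (-0.33 log2). Rps19 was thus 1.32-fold and 1.26-fold lower in the null pools, while its fasting differences were -0.02 log2 in null and 0.04 log2 in wild-type liver. Rps19 is measured by 1 probe set, so no second probe set bears on this value.

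In fed liver the median log2 difference of null against wild-type was -0.03 over all members, -0.02 for the large and -0.05 for the small subunit, and -0.01 over all probe sets. Rps3, a small subunit protein at the entry channel, had 3051 units in fed null and 3785 units in fed wild-type liver (-0.31 log2). Rpl6 (-0.26), Rpl37a (-0.25) and Rpl7a (-0.23) stood next to it by brightest probe set. The highest measured was Rpl37, a zinc-binding protein of the large subunit, with 201 units in fed null and 161 units in fed wild-type liver (0.32 log2). Of the 70 measured members, 47 were lower and 23 higher in fed null than in fed wild-type liver, where 2736 of all 5306 measured probe sets were lower and 2570 higher.

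Between fasted and fed liver the family was nearly flat in both genotypes. In PPARα-null liver the median log2 difference of fasted against fed was 0.06 over all members, 0.06 for the large and 0.08 for the small subunit, and 0.05 over all probe sets. In wild-type liver it was -0.01 for all members and for either subunit, and 0.00 over all probe sets. The median of the difference between these responses, null minus wild-type, was 0.04 for all members, which is also its value over all probe sets (0.04). Among measured probe sets alone it was 0.05 for members and -0.04 for all. The measured medians with fasting were 0.07 for members and -0.04 for all in null liver, and -0.02 and 0.02 in wild-type liver. Of the 70 measured members, 40 were above and 30 below 0 with fasting in null liver, and 28 above and 42 below in wild-type liver, where 2461 and 2786 of the 5306 measured probe sets were above 0. In the difference between the responses 45 were above and 25 below 0, against 2404 above and 2902 below over all measured probe sets.

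By brightest probe set, the highest fasting differences in null liver were those of Rpl10a (4774 units fasted, 3693 units fed, 0.37 log2), Rps9 (1573 units fasted, 1233 units fed, 0.35 log2), Rpl6 (0.32), Rps3 (0.32) and Rpl7a (0.31). By the same measure Rpl8 was highest in wild-type liver at 2445 units fasted and 2027 units fed (0.27 log2), and Rps9 followed at 1470 units fasted and 1245 units fed (0.24 log2). The lowest in null liver was Rps29, a small zinc-binding protein, at 11522 units fasted and 14136 units fed (-0.30 log2) on its brightest probe set. The lowest brightest probe set in wild-type liver was that of Rps10 at 5728 units fasted and 6489 units fed (-0.18 log2), but by the mean of its probe sets Rps24 was lower (-0.25 log2, against -0.11 log2 for Rps10). Rpl8 was alike in both genotypes, at 2339 units fasted and 1948 units fed in null liver (0.26 log2).

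How far such small values can be read was judged from genes with several probe sets, which give repeated readings of 1 gene on each array. Among 18 member genes with 2 or more measured probe sets, probe sets of the same gene scattered around their gene mean with an SD of 0.14 log2 in fasted null against fasted wild-type, 0.12 in fed null against fed wild-type, 0.16 in fasted against fed null and 0.10 in fasted against fed wild-type liver. The gene means themselves had SDs of 0.12, 0.08, 0.17 and 0.11 in these comparisons. A mean over several probe sets scatters less than a single probe set, so the 2 sets of SDs are not on an equal footing. The scatter can include transcript forms that only some probe sets bind, and it covers no variation between mice.

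Rps18 was a gene whose probe sets gave like values. Its 3 measured probe sets had fasting differences of 0.15, 0.22 and 0.25 log2 in null and 0.14, 0.12 and 0.23 log2 in wild-type liver. The brightest read 8361 units in fasted null, 9242 units in fasted wild-type, 7520 units in fed null and 8374 units in fed wild-type liver. Both measured probe sets of Rps7 were also above 0 with fasting, at 0.27 and 0.05 log2 in null and 0.23 and 0.03 log2 in wild-type liver.

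Rps24 and Rps27l lay below 0 on every measured probe set. Rps24, whose message is spliced into several forms, had 4 measured probe sets at -0.01, -0.06, -0.03 and -0.25 log2 with fasting in null liver and at -0.22, -0.17, -0.40 and -0.19 log2 in wild-type liver. Rps27l is a form of Rps27 that p53 induces. Its 3 probe sets had fasting differences of -0.24, -0.23 and -0.25 log2 in null liver and of -0.15, -0.16 and -0.18 log2 in wild-type liver. The brightest read 5090 units in fasted null, 5390 units in fasted wild-type, 5957 units in fed null and 6026 units in fed wild-type liver. All are of the suffix types that can also bind related transcripts.

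In other genes the probe sets disagreed in size or in sign. All measured probe sets of Rpl27 lay below 0 with fasting in null liver, but by unlike amounts. Rpl27 gave -0.51 log2 on 1448217_a_at, at 541 units fasted and 771 units fed, but -0.07 and -0.22 log2 on the others. That value is the largest of any measured member in any comparison (1.42-fold). Rps14 gave 0.48 log2 on 1436586_x_at and -0.01 log2 on 1437706_x_at in the same comparison. Rps29 gave 0.43, -0.02 and -0.30 log2 on its 3 probe sets. Of the 10 genes with 3 or more measured probe sets, 4 lay below 0, 2 above 0 and 4 on both sides for fasting in null liver, and 5 below, 1 above and 4 on both sides for fasting in wild-type liver.

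**Figure D3:**
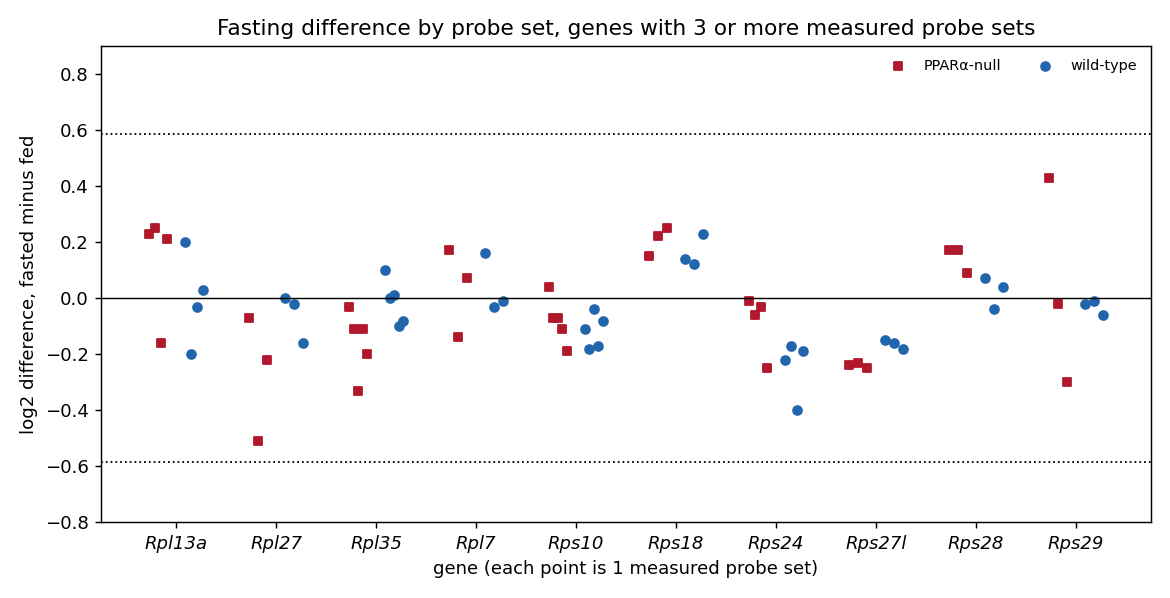
Log2 difference of fasted minus fed liver (y axis) for each measured probe set of the 10 ribosomal protein genes with 3 or more of them (x axis). Red squares are PPARα-null and blue circles wild-type, each from 1 array minus 1 array, and dotted lines mark 1.5-fold. Rps18 lies above 0 and Rps24 and Rps27l below 0 on every probe set, while Rps29 spreads to both sides in null liver.

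Rplp0, the stalk protein also known as 36B4, is widely used as a reference gene in quantitative PCR and was used so in the study. It had 6607 units in fasted null, 6855 units in fasted wild-type, 6502 units in fed null and 6471 units in fed wild-type liver. Its log2 differences were -0.05 and 0.01 between genotypes in fasted and fed liver, and 0.02 and 0.08 with fasting in null and wild-type liver. Its stalk partner Rplp2 read 5594, 5535, 5340 and 5378 units in fasted null, fasted wild-type, fed null and fed wild-type liver. Rpsa, a small subunit protein that was first described as a laminin receptor, read 1737, 1670, 1522 and 1698 units, and Rps4x read 4655, 4376, 4357 and 4276 units, in the same order. Neither Rplp0 nor Rplp2 differed by more than 1.06-fold in any of the 4 comparisons.

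Of the 102 probe sets that name a ribosomal protein together with other genes, 83 were measured. Of these, 2 differed by 1.5-fold in fasted null against fasted wild-type, 0 in fed null against fed wild-type, 2 in fasted against fed null and 2 in fasted against fed wild-type liver, against 27.8%, 5.13%, 37.8% and 23.3% of all measured probe sets. Their extremes were 0.99 log2 in fasted null against fasted wild-type liver and -1.33 log2 in fasted against fed wild-type liver. Of ribosomal proteins that the symbol form misses, Fau, which is made as a fusion with a ubiquitin-like protein, read 2338 units in fasted null, 2495 units in fasted wild-type, 2152 units in fed null and 1995 units in fed wild-type liver. Rps3a1 read 6244, 6893, 6672 and 6748 units in the same order.

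The paralogues Rpl22l1 and Rpl7l1, which the symbol form also misses, passed 1.5-fold in fasted null against fasted wild-type liver. Rpl22l1 read 3046 units in fasted null and 1797 units in fasted wild-type liver (1.70-fold higher), and 2289 units in fed null and 1908 units in fed wild-type liver. Rpl22 itself read 2314 and 2392 units in fasted null and fasted wild-type liver and 2548 and 2440 units in fed null and fed wild-type liver. Rpl7l1 read 45.7 units in fasted null and 109 units in fasted wild-type liver (2.38-fold lower), against 171 units in fed null and 162 units in fed wild-type liver. The measured probe sets of Rpl7 stayed between -0.19 and 0.17 log2 in these 4 comparisons.

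Genes that build the ribosome included several that passed 1.5-fold with fasting. Of 74 listed nucleolar and ribosome biogenesis genes, 28 were measured. With fasting, 11 of the 28 were at least 1.5-fold higher and 0 lower in null liver (median 0.53 log2), and 5 were higher and 0 lower in wild-type liver (median 0.21 log2). Among all measured genes, 15.4% were higher and 23.8% lower in null liver, and 11.8% were higher and 12.0% lower in wild-type liver. In fasted null against fasted wild-type liver 4 were higher and 1 lower, where 10.4% and 18.4% of all measured genes were, and in the fed comparison 0 of 28 passed, where 2.39% and 2.98% of all did. The list was chosen by knowledge of function, and a median over so few genes of 1 array is a description.

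Eif6, which keeps new large subunits from joining too early, read 760 units in fasted null and 320 units in fed null liver, and 557 units fasted and 259 units fed in wild-type liver. The nucleolar protein nucleolin, Ncl, read 1942 units in fasted null and 1077 units in fed null liver, and 2168 units fasted and 1052 units fed in wild-type liver. With fasting Eif6 was 2.38-fold higher in null and 2.15-fold higher in wild-type liver, and Ncl was 1.8-fold higher in null and 2.06-fold higher in wild-type liver. Nhp2, a protein of the box H/ACA particles that modify ribosomal RNA, read 704 units in fasted null and 463 units in fasted wild-type liver, against 361 units in fed null and 424 units in fed wild-type liver. The nucleolar helicase Ddx21 read 383, 207, 207 and 172 units in fasted null, fasted wild-type, fed null and fed wild-type liver, and was high on the fasted null array alone. Nip7, a factor of large subunit assembly, had the largest genotype difference in fasted liver among the measured genes of the list. It read 150 units in fasted null and 62.4 units in fasted wild-type liver, against 88.5 units in fed null and 79.2 units in fed wild-type liver.

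The array's control probe sets for the 18S ribosomal RNA were lowest on the fasted null array. The probe set for its middle read 827 units there, 2513 units in fasted wild-type, 1677 units in fed null and 2340 units in fed wild-type liver, and the 5′ probe set read 5407, 7922, 7538 and 7534 units in the same order. The labelling primes on poly(A) tails, so these values do not give the amount of ribosomal RNA.

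Of 15 measured factors and other genes with TOP messages, 3 were higher and 1 lower by 1.5-fold with fasting in null liver (median 0.24 log2), and 1 was higher and 0 lower in wild-type liver (median 0.20 log2). Over all measured genes 15.4% were higher and 23.8% lower in null liver, and 11.8% were higher and 12.0% lower in wild-type liver. The 4 that passed in null liver were Nap1l1, Hnrnpa1, Pabpc1 and Eif4b. Nap1l1, a histone chaperone, read 818 units in fasted null and 395 units in fed null liver, and 816 units fasted and 494 units fed in wild-type liver. Hnrnpa1, a splicing protein, read 781 units in fasted null and 407 units in fed null liver, and 541 units fasted and 381 units fed in wild-type liver. Pabpc1, the poly(A)-binding protein, read 3004 units in fasted null and 1921 units in fed null liver, and 3019 units fasted and 2299 units fed in wild-type liver. Eif4b, which aids the helicase of initiation, went the other way in null liver, at 234 units in fasted null and 352 units in fed null liver, and at 612 units fasted and 452 units fed in wild-type liver. In fasted null against fasted wild-type liver the largest differences of the list were those of Vim, which encodes the filament protein vimentin (728 and 253 units, 1.52 log2), and Eif4b (-1.39 log2). Of 25 other measured initiation, elongation and release factors, 2 were higher and 1 lower with fasting in null liver, and 2 higher and 0 lower in wild-type liver.

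Of 8 measured genes that couple nutrients to translation, 2 were higher and 0 lower with fasting in null liver, and 1 was higher and 0 lower in wild-type liver, where the same shares of all measured genes apply. In null liver these were Eif4ebp1 and Sesn1. Eif4ebp1, a repressor of cap-dependent initiation that mTOR inactivates, read 158 units in fasted null and 97.5 units in fasted wild-type liver, against 75 units in fed null and 85 units in fed wild-type liver. Sesn1, a stress-induced inhibitor of mTOR signalling, read 120 units in fasted null and 59.6 units in fasted wild-type liver, against 53.6 units in fed null and 54.1 units in fed wild-type liver. It counts as measured only through the fasted null array, where it is high, so its place in the count of 2 is no support. The gene that passed in wild-type liver was Mtor itself, which read 88.6 units in fasted null and 162 units in fasted wild-type liver, against 75.4 units in fed null and 86.8 units in fed wild-type liver.

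The mitochondrial ribosomal proteins serve a separate ribosome that translates messages of the mitochondrial genome. Of 57 measured genes, 13 were at least 1.5-fold lower and 2 higher with fasting in null liver (median -0.22 log2), and 2 were lower and 1 higher in wild-type liver (median -0.07 log2). In fasted null against fasted wild-type liver 8 were lower and 1 higher. The shares of all measured genes that were lower in these 3 comparisons were 23.8%, 12.0% and 18.4%, so the shares of mitochondrial ribosomal proteins were not above them. Mrpl39 read 182 units in fasted null and 352 units in fasted wild-type liver, against 680 units in fed null and 688 units in fed wild-type liver. Mrpl18 read 319 units in fasted null and 850 units in fasted wild-type liver, against 706 units in fed null and 847 units in fed wild-type liver. No cytosolic ribosomal protein gene among the 36 measured passed 1.5-fold in any of these comparisons.

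**Figure D4:**
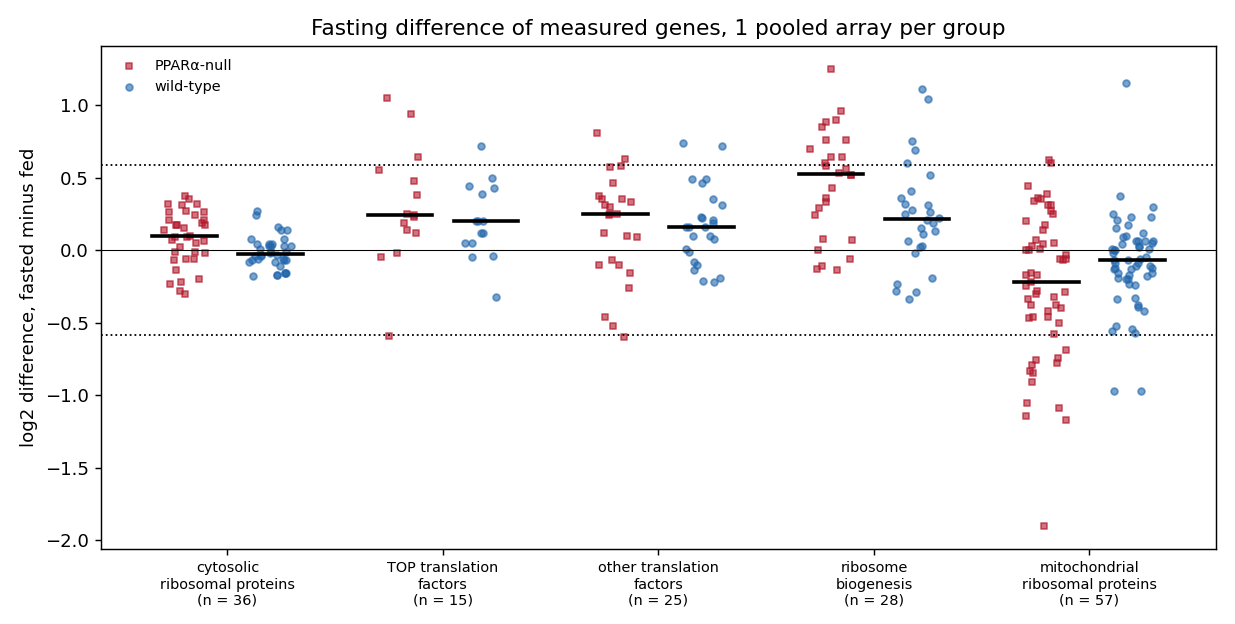
Log2 difference of fasted minus fed liver (y axis) for measured genes of 5 lists (x axis), by brightest probe set. Red squares are PPARα-null, blue circles wild-type, black bars the medians and dotted lines 1.5-fold. Cytosolic ribosomal proteins stay inside the lines in both genotypes, and ribosome biogenesis has its median at 0.53 in null and 0.21 in wild-type liver.

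Rps27l was set beside other genes that p53 induces, of which 5 of 24 listed were measured. In fasted null against fasted wild-type liver 2 of the 5 were at least 1.5-fold higher and 3 lower (median -1.18 log2), where 10.4% and 18.4% of all measured genes were. Trp53inp1 read 1572 units in fasted null and 585 units in fasted wild-type liver, and Sesn1 was the other higher one. Ei24 read 866 units in fasted null and 2012 units in fasted wild-type liver, and Perp 230 units in fasted null and 520 units in fasted wild-type liver. Ccng1, the third lower one, read 40.1 units in fasted null and 99.8 units in fasted wild-type liver. The 5 measured genes thus had no common direction, and the probe sets of Rps27l lay between -0.14 and 0.07 log2 in the same comparison. The rule for measured genes uses the mean over the arrays and can leave out genes high on 1 array alone. Of the listed genes left out, Cdkn1a read 762 units in fasted null and 27.7 units in fasted wild-type liver. Gadd45a (117 and 34 units) and Btg2 (77.2 and 28.6 units) were also higher. The others left out differed by less than 1.5-fold.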

How the data were processed

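The authors deposited linear intensities from Affymetrix MOE430A arrays of pooled liver RNA, made with GCRMA (2.20, per the submitters' processing notes). The arrays that shared a normalization are not given in the sources used here. How much RNA was labelled, and how many mice some pools held, differs between sources. GCRMA sets quantiles alike between arrays, so a change in total message per cell is not seen. Median intensities were 14.4 to 14.6 units. Here the values were converted to log2 (pandas 2.3.3, Python 3.11.15), and 2 arrays were subtracted per comparison. The number of arrays limits the precision, and no test was run. Symbols came from the platform annotation, and all 45 member symbols matched RefSeq genes of GRCm38.p6. A gene was read from its brightest probe set by mean log2. Suffixes _a_at, _s_at and _x_at, on 63 of the 70 measured members, mark probes that can bind several transcripts. Named members were the 5 highest and 5 lowest genes of each comparison of at least 128 units on the brighter array, genes with tissue-specific forms and their partners, Rplp0, Rplp2, Rpsa, Rps6 and genes whose probe sets lay on both sides of 1.5-fold. Genes described for how their probe sets agreed or differed, such as Rps7, Rps14 and Rpl27, were picked after their values were seen, as were Rpl22 and Rpl7 as partners. From each other list the genes named were among the 4 with the largest differences in a comparison described, at 128 units or more on the brighter array, though not every such gene is printed. Sesn1, Ccng1 and Wdr36 are dimmer and were named after their values were seen, to account for counts. Cdkn1a, Gadd45a and Btg2 were not measured and were also named after their values were seen. Members and lists were chosen with earlier results of these data known. The script was tested on simulated data. Alternatives covered normalization, centring, lowess, a floor, filters, probe set types, gene summaries and thresholds.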

Additional observations from a re-analysis of the deposited data

Results flagged for a closer look

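In 4 genes, 1 measured probe set differed in opposite directions in 2 comparisons of the same kind, each by more than the scatter between probe sets of 1 gene. That limit is 1 SD, which scatter alone can pass. The share of all measured probe sets that meet this rule was not computed, so the count is not a result about these genes. The difference between the 2 responses was not tested, since each group holds 1 array. Rps3 1435151_a_at differed with fasting by 0.32 log2 in PPARα-null and by -0.17 log2 in wild-type liver, and between null and wild-type by 0.17 log2 in fasted and by -0.31 log2 in fed liver. Rpl13a 1433928_a_at differed with fasting by 0.25 log2 in null and by -0.20 log2 in wild-type liver, and between null and wild-type by 0.23 log2 in fasted and by -0.22 log2 in fed liver. The brightest Rpl13a probe set, 1455485_x_at, had 0.21 log2 with fasting in null and 0.03 log2 in wild-type liver. Rps29 1415833_x_at differed between null and wild-type by 0.23 log2 in fasted and by -0.22 log2 in fed liver, and its brightest probe set, 1438859_x_at, by -0.18 log2 in fasted and 0.05 log2 in fed liver. Rpl41 1455578_x_at differed between null and wild-type by 0.18 log2 in fasted and by -0.16 log2 in fed liver, and its brightest probe set, 1422623_x_at, by 0.00 log2 in fasted and by -0.21 log2 in fed liver. Rps3 has no other measured probe set. None of these values reaches 1.5-fold.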

How the results depend on the processing

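No paired analysis was possible because each group holds 1 array. The 15 medians of the family and its subunits lay between -0.07 and 0.21 log2 over 170 alternative values, and signs of medians so near 0 changed. The arrays were also centred on the probe sets of at least 64 units on every array. This moved all probe sets by 0.15 log2 in fasted null against fasted wild-type and by 0.13 log2 in fasted against fed null liver. In fasted null against fasted wild-type liver it gave 0.16 for all members, 0.16 for the large and 0.18 for the small subunit. In fasted against fed null liver it took the measured Rps14 1436586_x_at, at 0.48 log2 without centring, past 1.5-fold (0.585 log2). That no measured member passes 1.5-fold thus holds for the values as deposited and not with centring. The counts of members past 1.5-fold (1, 0, 3 and 1 of 96 in fasted null against fasted wild-type, fed null against fed wild-type, fasted against fed null and fasted against fed wild-type) became 0 in every comparison with a floor of 16 units, with 64 units on at least 1 array, with a mean of 64 units (chosen after seeing the data), or with 1 value per gene. With centring they were 2 in the first and 0 in the last comparison, and the third gained the Rps14 probe set. Without suffixed probe sets the last was 0. With the probe sets of several genes added (chosen after seeing the data), they were 3, 0, 5 and 3. At 2-fold they were 0, 0, 1 and 0, and at a lower limit of 0.32 log2 they were 11, 2, 16 and 3. The shares of all probe sets past these other limits were not computed, so these counts cannot be set against the whole array. Biogenesis genes higher with fasting numbered 10 to 16 in null and 4 or 5 in wild-type liver over all scalings and summaries. The 2 mitochondrial ribosomal proteins lower with fasting in wild-type liver became 4 with centring, 4 with lowess and 1 with mean probe sets. Of 526 alternative values of named members, 49 moved past the scatter between probe sets. Reversals were counted only for differences past 1.5-fold. No brightest probe set of a member gene had such a difference, so the count of 0 reversals was fixed in advance. Probe sets under 16 units are not told from background here.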
